A study of Homo sapiens with 3 samples.

Results

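Matrin 3 (MATR3) is a nuclear RNA-binding protein whose known preference is for pyrimidine-rich RNA. The intron clusters described here differ from it in composition: read clusters in which at least 65% of the bases were purines, A or G. Whether MATR3 itself bound at them was not tested. They were taken from the 3 cluster tables of a PAR-CLIP experiment as rows annotated to an intron, 20 to 149 nt long, with an A plus G share of the cluster sequence of at least 0.65. The rule used annotation, length and sequence, and no read or conversion value. It gave 3013 clusters in replicate 1, 3788 in replicate 2 and 3006 in replicate 3, 9807 in all. These were 3.16%, 4.02% and 3.36% of the 95377, 94127 and 89338 intron clusters of that length, and 2.26%, 2.88% and 2.42% of all clusters. The comparison class, called mixed below, was the 24319, 25951 and 22423 intron clusters of the same length range with a purine share of 0.45 to 0.55. The cells were untreated HEK293, a long-established line from human embryonic kidney, of wild-type genotype, and the protein was pulled down with a MATR3 antibody in 3 biological replicates. The series has this single group, so no control library, second genotype or input stands beside the clusters, and each comparison was made between classes of clusters inside a replicate. The series title concerns activation of the cGAS-STING pathway, which senses cytosolic DNA, when MATR3 is deficient.

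As background, MATR3 carries RNA recognition motifs and zinc fingers, works beside the polypyrimidine tract binder PTBP1, and is best known for binding AUCUU-like pyrimidine stretches in introns and keeping nearby exons out of the mRNA. Purine-rich intron RNA is read by other protein families: hnRNP A1 binds UAGGG, hnRNP F and H bind runs of G, SR proteins and TRA2 proteins bind GAA-type repeats, and poly(A)-binding proteins bind A tracts. PAR-CLIP feeds cells a photoreactive uridine, crosslinks protein to RNA with long-wave light and reads a crosslinked U as a T-to-C change, so a cluster with few T offers few places where binding can be seen. Sequences below are written as DNA, with T for U.

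No deposited cluster had fewer than 4 reads, fewer than 2 conversion locations or a length under 20 nt. Each also held at least 4 reads with a T-to-C change. The clusters of all kinds held 1649124, 1506682 and 1532602 reads in replicates 1, 2 and 3, and the purine-rich intron clusters 29079, 32660 and 28551 of them, or 2.64%, 3.36% and 2.81% of the reads in intron clusters of that length. Reads carried no molecular identifiers, and the depth of the whole libraries is not given in the sources used here. Replicate 2 stood apart from the other libraries: it had the most purine-rich clusters and the lowest share of them with 2 or fewer distinct reads (39.9%, against 49.9% in replicate 1 and 48.2% in replicate 3). All intron cluster sequences of the length range equalled hg38 at the deposited coordinates.

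Purine-rich clusters of all 3 replicates met at only 7 places. A pair of sites at which the clusters of all 3 replicates overlapped one another is shown first, as recurring members. The clusters in TNKS1BP1, which encodes a tankyrase-binding protein, lay 840 to 861 nt into an intron of 5569 nt and held short G runs among A and G. Those in KLF15, a zinc-finger transcription factor gene, lay 1603 to 1612 nt into an intron of 7945 nt. Capitals mark runs of at least 3 G, and positions are hg38.
TNKS1BP1, replicate 1, chr11:57307517-57307553, minus strand: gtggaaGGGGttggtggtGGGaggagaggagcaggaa
TNKS1BP1, replicate 2, chr11:57307518-57307592, minus strand: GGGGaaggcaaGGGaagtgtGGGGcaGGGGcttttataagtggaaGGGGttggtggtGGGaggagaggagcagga
TNKS1BP1, replicate 3, chr11:57307513-57307556, minus strand: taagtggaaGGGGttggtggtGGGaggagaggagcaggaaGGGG
KLF15, replicate 1, chr3:126350201-126350276, minus strand: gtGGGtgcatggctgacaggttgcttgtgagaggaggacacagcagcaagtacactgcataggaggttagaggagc
KLF15, replicate 2, chr3:126350194-126350264, minus strand: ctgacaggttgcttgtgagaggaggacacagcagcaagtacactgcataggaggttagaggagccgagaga
KLF15, replicate 3, chr3:126350199-126350276, minus strand: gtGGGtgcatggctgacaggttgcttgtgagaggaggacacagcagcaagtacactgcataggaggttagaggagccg
The TNKS1BP1 clusters had 18, 12 and 10 reads in replicates 1, 2 and 3, with 3, 7 and 3 distinct reads and purine shares of 83.8%, 78.7% and 84.1%. The KLF15 clusters had 20, 17 and 15 reads, and G runs were few in them. At other sites, in ARMC8 (12, 10 and 6 reads), FAM193B (10, 6 and 7 reads) and FAM120B (24, 10 and 24 reads), the 3 clusters formed a chain in which not every pair overlapped. A further site lay in AGO2, the Argonaute gene, with 8, 6 and 6 reads.

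The most heavily read purine-rich cluster of each replicate had 59, 55 and 47 reads, with 14, 24 and 19 distinct reads. They lay in PCBP2, which encodes a poly(C)-binding protein, in PCBD2, a pterin dehydratase and transcription cofactor gene, and in SNX2, a sorting nexin gene. Capitals again mark runs of at least 3 G.
PCBP2, replicate 1, chr12:53452845-53452926, plus strand: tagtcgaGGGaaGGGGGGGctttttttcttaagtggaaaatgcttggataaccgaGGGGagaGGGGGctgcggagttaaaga
PCBD2, replicate 2, chr5:134927042-134927087, plus strand: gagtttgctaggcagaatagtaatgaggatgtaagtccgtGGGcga
SNX2, replicate 3, chr5:122790685-122790737, plus strand: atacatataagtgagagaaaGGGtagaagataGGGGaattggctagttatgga
The share of their reads with a T-to-C change was 71.2%, 41.8% and 31.9%, each below the 89.8% ± 0.97 (SD, n = 3 replicates) of all purine-rich reads. As each listed cluster held at least 4 reads with a T-to-C change, clusters with few reads could not have a low share. The highest purine share among the members was 92.3%, and such clusters kept few T. A pair of the purest is shown with runs of at least 6 purines in capitals, from PAFAH1B1 (2 T in 33 nt, 11 reads) and TRIM16 (4 T in 41 nt, 8 reads).
PAFAH1B1, replicate 2, chr17:2615927-2615959, plus strand: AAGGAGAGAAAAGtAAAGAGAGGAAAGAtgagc
TRIM16, replicate 2, chr17:15655349-15655389, minus strand: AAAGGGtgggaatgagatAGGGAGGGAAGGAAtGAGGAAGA

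The rule fixed the purine share but not the balance of A and G or the order of the letters. Words of 5 letters were therefore counted in the clusters and in the nearest windows that carried no cluster. Each window had the length of its cluster, lay within 2000 nt on the same strand, met the same purine share, held at least 2 T and overlapped no cluster of any replicate. At least 1 such window was found for 99.7% ± 0.078 of the clusters (SD, n = 3), at a median distance of 104 nt ± 9.54. The balance of A and G was not matched. In the windows G made up 32.7% ± 0.42 of the bases and A 34.3% ± 0.48. In the clusters the shares were 38.2% ± 0.50 and 31.5% ± 0.48. Of 642 words present in at least 1% of the clusters of each replicate, TAGGG, the DNA form of the hnRNP A1 motif, had the highest ratio. It stood in 11.7%, 11.2% and 11.5% of purine-rich clusters and in 4.67%, 4.71% and 4.40% of windows, a log2 ratio of 1.32 ± 0.07 (SD, n = 3). Only the transcribed strand was searched, and words overlap one another. The clusters with TAGGG that had most reads and an overlapping cluster in another replicate are shown with this word in capitals.
SCD, replicate 1, chr10:100350926-100351029, plus strand: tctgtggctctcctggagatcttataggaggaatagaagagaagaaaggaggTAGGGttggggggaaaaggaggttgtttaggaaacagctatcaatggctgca
AHCY, replicate 2, chr20:34294909-34294967, minus strand: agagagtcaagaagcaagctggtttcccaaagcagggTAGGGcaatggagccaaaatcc
PACSIN2, replicate 2, chr22:42991568-42991611, minus strand: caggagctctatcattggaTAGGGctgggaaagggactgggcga
LSM12, replicate 3, chr17:44066015-44066122, minus strand: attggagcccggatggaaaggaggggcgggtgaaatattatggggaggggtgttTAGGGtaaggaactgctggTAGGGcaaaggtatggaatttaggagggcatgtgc
DDX39B, replicate 3, chr6:31535171-31535218, minus strand: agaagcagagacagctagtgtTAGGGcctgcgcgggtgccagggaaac
They had 28, 33, 30, 36 and 29 reads in that order. SCD encodes stearoyl-CoA desaturase, AHCY S-adenosylhomocysteine hydrolase, PACSIN2 a membrane-bending endocytic protein, LSM12 an LSM-family RNA-associated protein and DDX39B an RNA helicase of splicing and export. The LSM12 cluster held TAGGG more than once. The TAGGG ratio was 1.24 against windows with the same number of T and 1.21 against windows within 0.02 of the same purine share. Mixed clusters showed TAGGG too, in 6.12% ± 0.41 of clusters against 3.24% ± 0.21 of their own windows, a log2 ratio of 0.91 ± 0.02 (SD, n = 3). The difference between the classes in this ratio was not tested. Windows of mixed clusters lay nearer, at a median of 18.7 nt ± 0.58. Of them 97.2% ± 0.11 lay inside the same intron, against 91.6% ± 0.31 of the windows of purine-rich clusters (SD, n = 3).

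Words like TAGGG filled the top of the list. The next 9 were GTAGG (log2 ratio 0.97 ± 0.04), AGGGA (0.91 ± 0.03), GGGGA (0.90 ± 0.06), TTAGG (0.87 ± 0.12), GGGAT (0.87 ± 0.04), ATAGG (0.86 ± 0.16), GAGGG (0.82 ± 0.05), GGTAG (0.81 ± 0.09) and AGGGG (0.81 ± 0.06; SD, n = 3 throughout). All 10 held GG, 7 held AGG, 6 held GGG and 5 held TAG. Over the whole list, 38 of 40 words with GGG and 42 of 44 with TAG had a mean ratio above 0. How many of all 642 words lay above 0 was not counted, so neither these counts nor the next one show an excess. The windows also held less G than the clusters. At the other end, 35 of 38 words with AAA had a mean ratio below 0, and the lowest 5 were AACAA (-1.05 ± 0.11), ACAAA (-1.04 ± 0.11), CTAAA (-1.04 ± 0.48), TCAAA (-1.02 ± 0.05) and TACAA (-1.01 ± 0.23). CTAAA varied most, at -1.42, -0.50 and -1.19 in replicates 1, 2 and 3. GAAGA, a word of the kind SR and TRA2 proteins read, was at 0.23 ± 0.05, with 13.6% ± 0.47 of clusters against 11.6% ± 0.36 of windows. Its sign turned, to -0.04 against windows with the same number of T and -0.0047 against windows of the same purine share.

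Words made only of A and G ordered by their number of G, while the windows themselves held less G and more A than the clusters. With no G, AAAAA stood in 7.84% ± 0.35 of clusters and 14.4% ± 0.68 of windows, a log2 ratio of -0.87 ± 0.03 (SD, n = 3). The median over words with 1, 2, 3 and 4 G was -0.37, 0.18, 0.61 and 0.81, and GGGGG was at 0.79 ± 0.04. All 5 words with 1 G were below 0 and all words with 3 or more G above it, also against windows with the same number of T or purine share. The 10 words with 2 G were above 0 against the main windows, but 5 of them were below 0 against windows with the same number of T and 4 against windows of the same purine share, with medians of 0.0028 and 0.014. Longer tracts showed the same contrast between G and A. GGGG stood in 39.6% ± 2.95 of purine-rich clusters and 25.3% ± 1.64 of windows, while 8 A in a row stood in 0.73% ± 0.24 of clusters and 2.68% ± 0.27 of windows. At least 10 purines in a row stood in 30.8% ± 0.77 of clusters and 21.0% ± 0.85 of windows. Regular purine repeats were rare in both: GA repeated 5 times stood in 0.26% ± 0.03 of clusters and 0.14% ± 0.04 of windows, GAA repeated 4 times in none of the purine-rich clusters and 0.016% ± 0.002 of windows, and GGAA repeated 3 times in 2 clusters, both of replicate 2. These counts describe the letters that lay in clusters, which also depend on where the reads started and ended. G made up 38.2% ± 0.50 of the bases inside purine-rich clusters but 11.6% ± 0.44 of the base just before them and 17.3% ± 0.29 of the base just after, and A opened 45.1% ± 0.79 of them. The part of single-base composition, read ends, mapping and crosslinking in these ratios was not tested.

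**Figure D1:**
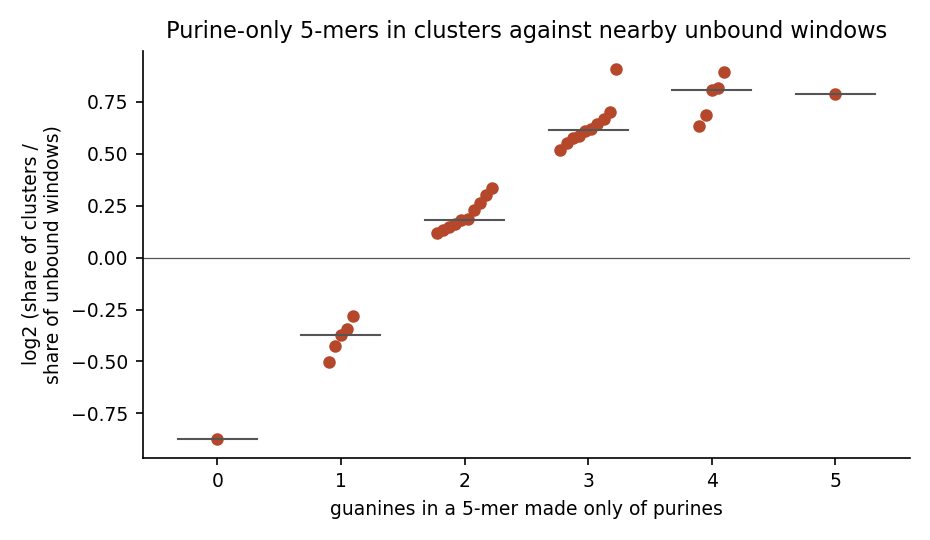
Each point is a 5-letter word made only of purines, placed by its number of G (horizontal) and by the mean over 3 replicates of the log2 ratio of its share of purine-rich clusters to its share of nearby unbound windows (vertical); the bars are medians. Words with no or 1 G lie below 0 and words with 3 or more above it. Words with 2 G lie above 0 here, but 5 of these 10 lie below it against windows with the same number of T. The windows were not matched for the balance of A and G.

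Clusters holding TAGGG, 353, 425 and 346 in replicates 1, 2 and 3, were set against the other purine-rich clusters. After the moved level (explained next) was taken off, 4.39%, 2.82% and 7.66% of them overlapped a cluster of another replicate, against 3.18%, 0.149% and 3.10% of the others, a difference of 2.82 percentage points ± 1.68 with the same sign in 3 of 3 replicates (SD; exact two-sided sign-flip permutation p = 0.25). Another cluster of the same replicate lay within 500 nt of 51.0% ± 1.505 of them and 47.3% ± 1.84 of the others, a difference of 6.92, 2.16 and 1.98 points in replicates 1, 2 and 3 whose mean of 3.69 was 2.07 without replicate 1. Conversion per T was 16.6% ± 0.77 with TAGGG and 19.0% ± 0.56 without it, while they held 7.83 ± 0.33 and 6.90 ± 0.17 T (SD, n = 3). The share near a 5′ splice site differed by -0.53 percentage points ± 0.89, with both signs among the replicates. The deposited mode location, which the file header does not explain, lay within 1 nt of 3.95% ± 0.32 of the T of TAGGG and of 6.15% ± 0.17 of the other T in the same clusters. As the meaning of the mode location is not given, these shares do not show which T was favoured.

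Whether a purine-rich cluster was found again in another replicate was asked by overlap of at least 1 nt on the same strand with a cluster of any kind. This held for 13.6%, 10.3% and 14.1% of purine-rich clusters in replicates 1, 2 and 3. The same clusters moved by 1000 nt up or down the chromosome overlapped one in 10.3%, 9.82% and 10.5%, so the excess was 3.32, 0.449 and 3.63 percentage points, with a mean of 2.46 ± 1.75 (SD, n = 3). Replicate 2 was lowest and was barely above its moved level. Moved copies did not have to stay in the same intron or gene. Mixed clusters were found again in 19.3%, 18.6% and 20.6%, against 11.6%, 11.3% and 12.1% after moving. Their excess of 7.86 points ± 0.59 did not overlap that of the purine-rich clusters in any replicate. The difference between the classes was -4.38, -6.91 and -4.88 points, a mean of -5.39 ± 1.34, lower for purine-rich clusters in 3 of 3 replicates (exact two-sided sign-flip permutation p = 0.25, the smallest that 3 replicates can give). An overlap between a pair of replicates enters the values of both, so the 3 values are not independent. The same holds for the other comparisons of overlap with another replicate. The difference stayed negative within classes of T number and length, at -4.65 ± 1.56, and was -2.86 ± 1.26 at 20 to 40 nt and -2.95 ± 0.54 where at least 50% of both clusters had to overlap. With replicates 1 and 3 as the only partners it was -3.27 ± 0.13. That SD is over these 2 replicates only, and both values come from the same pair of libraries, so it does not show a spread over independent replicates.

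**Figure D2:**
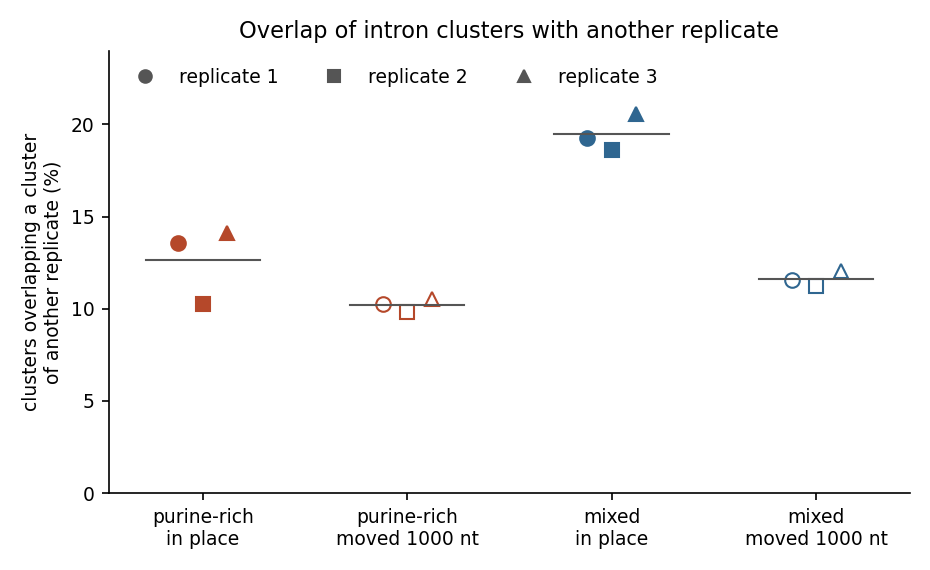
Percentage of intron clusters that overlapped a cluster of another replicate, in place (filled) and after moving by 1000 nt (open), for purine-rich (red) and mixed (blue) clusters; each marker is 1 replicate and each line the mean of 3. In place, purine-rich clusters lay at 10.3% to 14.1% and mixed clusters at 18.6% to 20.6%, with moved levels of 9.82% to 12.1% in both.

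The partner in the other replicate was often less purine-rich. Of the 409, 389 and 425 purine-rich clusters found again, 161, 165 and 138 met a partner that passed the same rule, which is 39.4%, 42.4% and 32.5% of them. The median purine share of the partners was 62.0%, 62.5% and 60.2%. For 14.4%, 14.7% and 18.1% of those found again, no partner exceeded a purine share of 50%. A cluster in both other replicates was met by 0.90% ± 0.15 of purine-rich and 1.98% ± 0.11 of mixed clusters (SD, n = 3). The excess over the moved level was 3.09 points ± 2.04 at purine shares of 0.65 to under 0.70, 1.94 ± 1.29 at 0.70 to under 0.75, 0.057 ± 1.31 at 0.75 to under 0.80 and 2.42 ± 4.53 at 0.80 or more, where only 82, 123 and 95 clusters lay. Just inside the threshold, at 0.65 to under 0.66, 589, 679 and 572 clusters had an excess of 4.65 points ± 3.65 and a conversion of 16.9% ± 0.35 per T. Just outside it, at 0.64 to under 0.65, 608, 720 and 581 clusters had 2.24 ± 2.97 and 16.8% ± 0.70.

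Purine-rich clusters held few reads. A T-to-C change was required of every listed cluster, so only its amount can be compared. Their median read number was 8, 7 and 8 in replicates 1, 2 and 3, against 9, 8 and 9 for mixed clusters, and the mean log2 read number differed by -0.18 ± 0.02 (lower in 3 of 3 replicates, exact two-sided sign-flip permutation p = 0.25, n = 3). Distinct reads differed by -0.25 ± 0.03 on the log2 scale in the same way. Neither difference remained among clusters of 20 to 40 nt, where reads differed by 0.0139 ± 0.0049 and distinct reads by 0.0268 ± 0.0035, or within classes of T number and length, at 0.013 ± 0.0007 and 0.0012 ± 0.0032. The share of reads with a T-to-C change was 90.2%, 88.7% and 90.6%, against 88.9%, 87.8% and 89.1% in mixed clusters. This difference of 1.23 points ± 0.29 turned to -0.79 ± 0.34 among clusters with at least 3 distinct reads and to -0.40 ± 0.60 at 20 to 40 nt, and was 0.013 within classes of T number and length. The deposited conversion specificity, on a log10 scale, was 0.829 ± 0.023 and 0.841 ± 0.020, a difference of -0.012 ± 0.0035 that was 0.0013 ± 0.0004 within classes of T number and length and 0.0025 ± 0.0025 at 20 to 40 nt.

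Conversion per T, the conversion events over all T positions counted, was 18.2%, 18.5% and 19.3% in purine-rich clusters and 12.04%, 12.3% and 12.7% in mixed ones. The difference of 6.31 points ± 0.27 had the same sign in 3 of 3 replicates (SD; exact two-sided sign-flip permutation p = 0.25). It was 0.62 ± 0.25 within classes of T number and length. Purine-rich clusters held 7.01 T ± 0.18 on average and mixed clusters 13.1 ± 0.54, and every cluster had to show at least 2 conversion locations to be listed. With 2 to 3 T, conversion was 39.5% ± 0.89 in purine-rich and 40.5% ± 2.78 in mixed clusters. With 4 to 5 T it was 26.1% ± 0.85 and 26.8% ± 0.89, and with 6 to 8 T 18.5% ± 0.60 and 17.9% ± 0.49. With 9 or more T it was 14.0% ± 0.44 and 11.6% ± 0.24. Conversion thus followed the number of T in both classes. The difference between the classes had both signs among the replicates at 2 to 3 T (-1.04 points ± 3.22) and 4 to 5 T (-0.71 ± 1.006). Conversion was higher for purine-rich clusters in 3 of 3 replicates at 6 to 8 T (0.64 ± 0.13) and 9 or more T (2.40 ± 0.30). The last bin has no upper limit and T number was not matched inside it, so its difference is not one at equal T number. In 74.9% ± 3.82 of purine-rich clusters the number of conversion locations was exactly 2, the lowest allowed, against 53.0% ± 5.67 of mixed clusters.

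**Figure D3:**
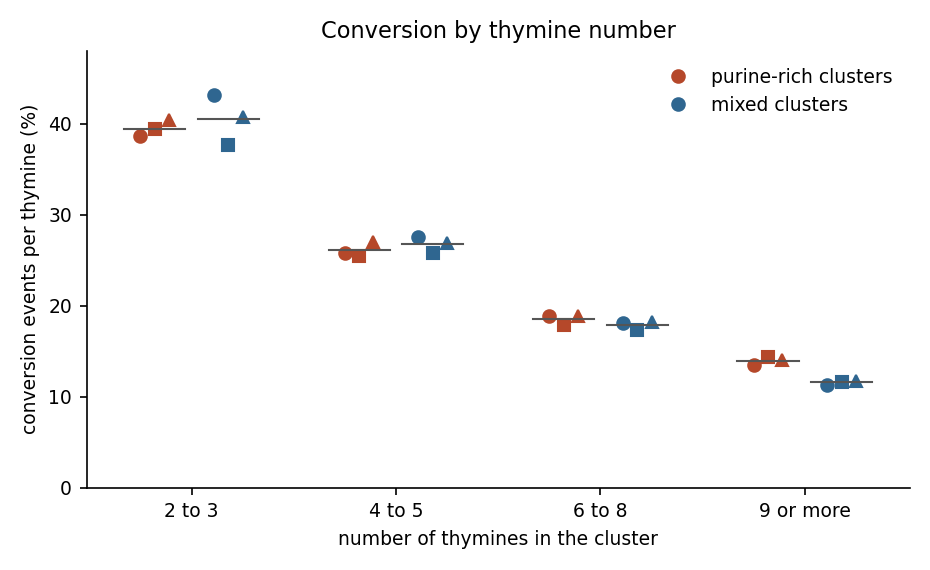
Conversion events per T position (vertical, %) by the number of T in the cluster (horizontal) for purine-rich (red) and mixed (blue) clusters; circles, squares and triangles are replicates 1, 2 and 3 and lines are means. From 2 to 3 T up to 9 or more T, the mean went from 39.5% to 14.0% in purine-rich and from 40.5% to 11.6% in mixed clusters.

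The sequence beside purine-rich clusters was described outside the bases that the rule used, whose median purine share was 68.6% ± 0.19. The share of purines was 51.0% ± 0.56 in the first 5 nt upstream and 52.2% ± 0.25 in the first 5 nt downstream, 52.8% ± 0.40 and 53.1% ± 0.99 at 6 to 10 nt, and 48.2% ± 0.12 and 48.1% ± 0.13 at 501 to 1000 nt (SD, n = 3). The flanks of purine-rich clusters thus held more purines near the cluster than far from it. The same bins outside mixed clusters lay between 45.5% ± 0.04 and 48.3% ± 0.11. Outside the clusters, T made up 28.6%, 27.9% and 28.6% of the 100 nt on both sides of purine-rich clusters and 31.6%, 31.0% and 31.6% beside mixed ones, a difference of -3.05 points ± 0.05 (lower in 3 of 3 replicates, exact two-sided sign-flip permutation p = 0.25). Within classes of T number and length, the sign turned, to 0.25 ± 0.02. ATCTT, the DNA form of the AUCUU word, was inside 1.26% ± 0.20 of purine-rich clusters, which the rule itself keeps low. It was in the 100-nt flanks of 20.4%, 19.7% and 20.6% of purine-rich clusters and 26.2%, 25.2% and 26.6% of mixed ones, a difference of -5.78 points ± 0.27 that was -0.03 ± 0.47 within classes of T number and length. A pyrimidine-rich intron cluster, with a purine share of at most 0.35, lay within 500 nt in 14.9%, 11.1% and 15.3% of purine-rich and 17.0%, 14.7% and 18.6% of mixed clusters, a difference of -2.98 points ± 0.81, or -1.03 ± 1.196 within those classes.

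**Figure D4:**
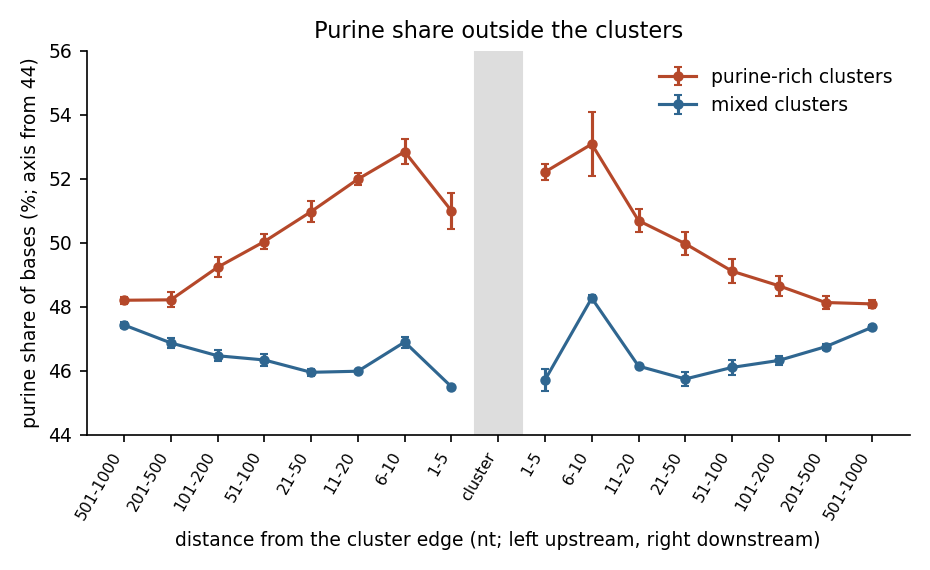
Mean purine share of the bases outside purine-rich (red) and mixed (blue) intron clusters (vertical, %, axis from 44) by distance from the cluster edge (horizontal, nt, uneven bins; the grey band is the cluster); error bars are the SD over 3 replicates. Beside purine-rich clusters the share lay at 51.0% to 53.1% in the first 10 nt and at 48.1% to 48.2% at 501 to 1000 nt.

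In the intron, purine-rich clusters lay near splice sites more often than mixed ones. Within classes of T number and length this did not hold for the 5′ site, and the 3′ difference was smaller than its SD. These classes are ranges, so T number and length were matched only roughly. Positions were taken from the shortest GENCODE intron that holds the cluster. The centre was within 500 nt of the 5′ splice site in 15.7%, 16.6% and 16.2% of purine-rich and 12.2%, 12.7% and 12.8% of mixed clusters, a difference of 3.57 points ± 0.30 (higher in 3 of 3 replicates, exact two-sided sign-flip permutation p = 0.25). Within classes of T number and length, this difference was -1.12 ± 0.74, and with the longest intron holding the cluster it was 2.03 ± 0.35. Near the 3′ splice site the shares were 12.3%, 11.5% and 12.3% against 9.54%, 9.97% and 10.3%, a difference of 2.11 points ± 0.66, or 0.66 ± 0.77 within those classes and 1.22 ± 0.40 with the longest intron. In introns of 10000 nt or more, 4.83% ± 0.73 of purine-rich and 3.34% ± 0.25 of mixed clusters were near the 5′ splice site, and in introns under 2000 nt 56.6% ± 1.93 and 52.4% ± 0.88. First introns held 47.5% ± 0.28 of purine-rich and 44.9% ± 0.85 of mixed clusters.

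The share near the 5′ splice site was highest in the G-rich members. Members were divided by the share of G among their purines, from A-rich, at most 1/3 (239, 242 and 231 clusters), to G-rich, over 2/3 (600, 802 and 527 clusters). G-rich members lay within 500 nt of the 5′ splice site in 28.3%, 29.6% and 30.9%, and A-rich members in 6.69%, 9.09% and 9.96%. The difference of 21.0 points ± 0.59 had the same sign in 3 of 3 replicates (SD; exact two-sided sign-flip permutation p = 0.25). The most-read members of the G-rich kind near a 5′ splice site lay in STMN1, the stathmin gene, in KHSRP, which encodes an RNA-decay and splicing protein, and in TMA16, a ribosome-associated protein gene. Their centres lay 155, 303 and 75 nt into an intron. For contrast the most-read A-rich members, in UCHL1, a neuronal ubiquitin hydrolase gene, and JDP2, a bZIP transcription factor gene, follow them. Capitals mark runs of at least 3 G in the G-rich sequences and of at least 3 A in the A-rich ones.
STMN1, replicate 2, chr1:25905666-25905728, minus strand: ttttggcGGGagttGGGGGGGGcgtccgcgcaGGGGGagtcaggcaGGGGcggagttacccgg
KHSRP, replicate 1, chr19:6414813-6414863, minus strand: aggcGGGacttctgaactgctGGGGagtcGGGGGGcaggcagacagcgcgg
TMA16, replicate 3, chr4:163494861-163494961, plus strand: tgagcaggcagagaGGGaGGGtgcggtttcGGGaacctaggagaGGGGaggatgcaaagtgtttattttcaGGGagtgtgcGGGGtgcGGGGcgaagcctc
UCHL1, replicate 3, chr4:41259452-41259495, plus strand: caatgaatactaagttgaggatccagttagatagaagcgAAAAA
JDP2, replicate 1, chr14:75433199-75433271, plus strand: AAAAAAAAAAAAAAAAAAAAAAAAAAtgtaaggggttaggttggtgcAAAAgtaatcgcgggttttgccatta
The G-rich clusters had 54, 52 and 42 reads and the A-rich ones 34 and 28.

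The contrast held at each intron length, though on few A-rich members. In replicates 1, 2 and 3 these numbered 129, 122 and 115 in introns of 10000 nt or more. Under 2000 nt they numbered 20, 22 and 21. In introns of 10000 nt or more, 14.3% ± 2.73 of G-rich and 1.40% ± 1.05 of A-rich members lay near the 5′ splice site, at 2000 to under 10000 nt 24.6% ± 1.015 and 9.86% ± 2.78, and under 2000 nt 66.4% ± 1.07 and 44.4% ± 1.39 (SD, n = 3). First introns held 55.8% ± 0.74 of G-rich and 42.6% ± 3.88 of A-rich members. The 3′ splice site was within 500 nt of 16.5% ± 0.80 of G-rich and 8.43% ± 1.21 of A-rich members, but in introns of 10000 nt or more these shares were 1.14% ± 0.85 and 1.09% ± 0.47. The G-rich members were also GC-rich, at 65.4% ± 0.40 against 29.4% ± 0.10. Their 100-nt flanks held 24.2% ± 0.47 T against 32.1% ± 0.55, and ATCTT was in the flanks of 12.1% ± 1.49 against 29.9% ± 3.51. How far base composition of the surrounding intron sets these shares was not tested.

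G-rich and A-rich members differed in read values as well. The share of reads with a T-to-C change was 86.9%, 86.1% and 86.7% in G-rich members and 95.6%, 93.7% and 94.2% in A-rich ones, a difference of -7.90 points ± 0.65 (lower in 3 of 3 replicates, exact two-sided sign-flip permutation p = 0.25). The mean log2 read number was higher in G-rich members by 0.26 ± 0.07 and the log2 number of distinct reads by 0.33 ± 0.05. As each cluster held at least 4 reads with a T-to-C change, those with few reads could not have a low share. The difference in T-to-C read share at equal read number was not tested. Only 2 or fewer distinct reads stood behind 58.1% ± 7.73 of A-rich and 40.05% ± 4.68 of G-rich clusters. Conversion per T did not separate them: the difference was -1.53, 0.975 and -0.97 points in replicates 1, 2 and 3. After the moved level was taken off, 8.33%, 2.56% and 4.08% of G-rich members overlapped a cluster of another replicate, against -0.42%, -0.83% and -1.30% of A-rich ones, so the A-rich members overlapped no more often in place than when moved. The mean of G-rich members was 4.99% ± 2.99, or 3.32% without replicate 1. The difference was 5.84 points ± 2.71. It was 8.75 in replicate 1, 3.38 in replicate 2 and 5.38 in replicate 3. In place, 18, 17 and 18 A-rich and 116, 92 and 89 G-rich clusters overlapped one of another replicate. Moved copies did not have to stay in the same intron or gene, and G-rich members lay near splice sites more often. The part of this in the difference was not tested. In all, 11 measures were compared between G-rich and A-rich members, 11 between members with and without TAGGG and 12 between purine-rich and mixed clusters, and adjustment leaves no p-value below 0.25.

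**Figure D5:**
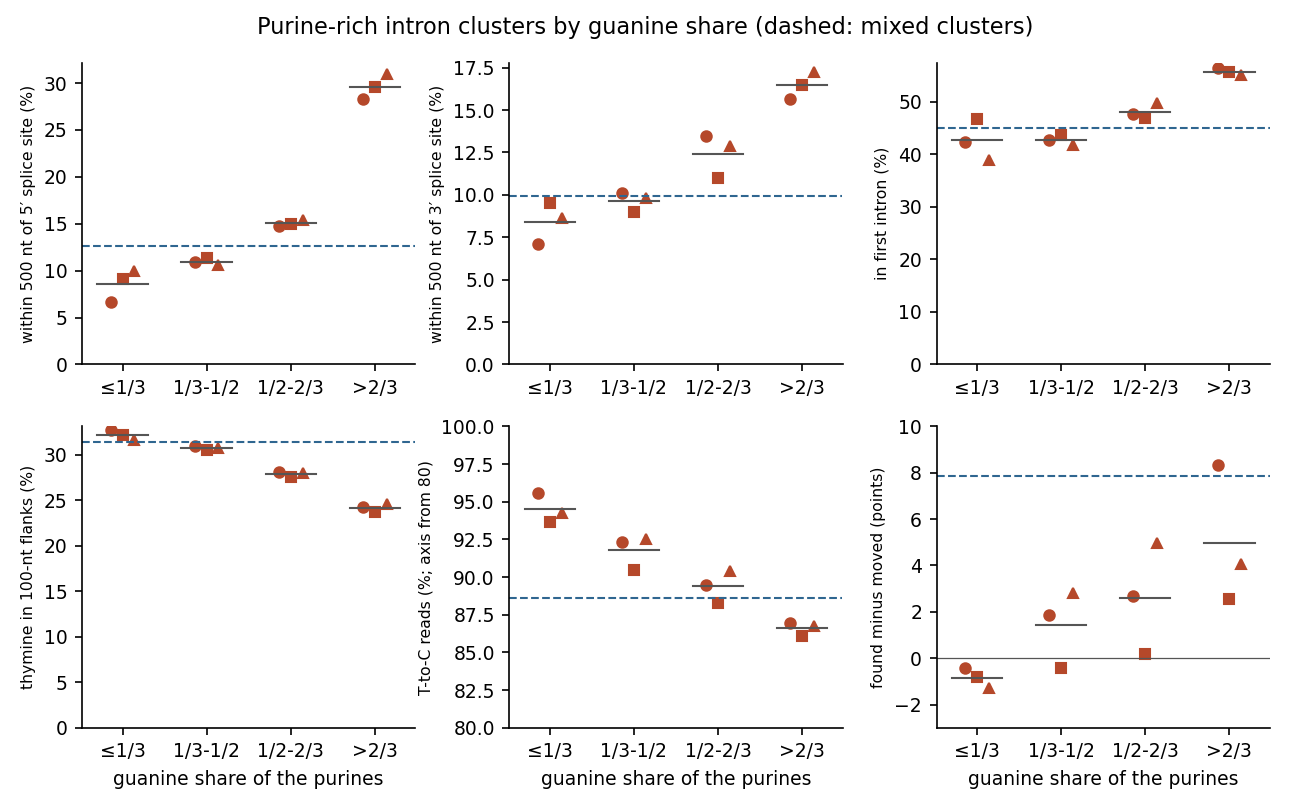
Values of purine-rich intron clusters in 4 classes of the G share among purines (horizontal), for 6 measures (vertical, as labelled; the T-to-C read panel starts at 80%); circles, squares and triangles are replicates 1, 2 and 3, lines their means, and the dashed blue line the mean of mixed clusters. The share near a 5′ splice site went from 8.58% in the lowest class to 29.6% in the highest, and the T-to-C read share from 94.5% to 86.6%.

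Purine-rich clusters stood within 500 nt of another cluster of any kind in 47.7% ± 1.56, and mixed clusters in 52.0% ± 1.16 (SD, n = 3). Another purine-rich cluster lay that near in 3.82% ± 0.58 of purine-rich clusters. Overlap with a cluster on the opposite strand was rare, at 4, 7 and 2 purine-rich clusters and 3, 10 and 7 mixed clusters in replicates 1, 2 and 3. As shares these were 0.13% ± 0.06 and 0.03% ± 0.01, a difference of 0.10 points ± 0.06 in the same direction in 3 of 3 replicates (exact two-sided sign-flip permutation p = 0.25).

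The members were spread over many genes. At least 1 purine-rich intron cluster was found in 4416 of the 10392 genes with any intron cluster of the length range. Of the 7377 genes with an intron cluster in all 3 replicates, 555 had a purine-rich one in all 3, which is 7.52%. Another 1231 genes had one in exactly 2 replicates and 2630 in 1 replicate only. The count of genes with members in every replicate depended on the threshold: 104 genes passed at a purine share of at least 0.70 and 228 with at least 3 distinct reads per cluster. The 12 genes with most members held 2.40% of them. TBCD, a tubulin-folding cofactor gene on chromosome 17 (82752042 to 82945914, plus strand, hg38), had 9, 10 and 8, which was 4.29%, 4.52% and 3.74% of its intron clusters. VAV2 had 9, 11 and 6, and MAD1L1, of the spindle checkpoint, 6, 11 and 4. ANKRD11, a chromatin regulator gene, had 12 and 14 in replicates 2 and 3 but 3 in replicate 1. The others were UCK2 (a uridine-cytidine kinase), LRRC8D (a volume-regulated anion channel subunit), SND1 (a Tudor-domain nuclease), TBL1X and CTBP2 (transcriptional corepressors), GPC3 (a cell-surface proteoglycan), CDK5RAP2 (a centrosome protein) and GALNT2 (an O-glycosylation enzyme), each with 3 to 10 per replicate. All are long genes with 62 to 249 intron clusters per replicate, apart from ANKRD11 with up to 265.

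A high share of purine-rich clusters marked other, mostly less covered genes. The share was computed for the 1457 genes with at least 15 intron clusters of the length range in each replicate. Of these, 425 had a purine-rich cluster in all 3 replicates and 128 had none in any. WDR43, a ribosome biogenesis gene on chromosome 2 (28894667 to 28948219, plus strand, hg38), had the highest lowest share, with 4 of 31, 5 of 25 and 4 of 23 clusters, or 12.9%, 20% and 17.4%. TNKS1BP1, shown above, followed with 3 of 18, 5 of 16 and 3 of 25, or 16.7%, 31.3% and 12%. FBXO22, an F-box protein gene, had 18.8%, 10.5% and 17.4%, and CSK, the kinase that restrains Src, 8.33%, 9.38% and 18.2%. UCK2 stood in both lists, with 5 of 62, 10 of 80 and 5 of 64, or 8.06%, 12.5% and 7.81%. The other 7 were GPT2 (a mitochondrial alanine aminotransferase), EP300 (a histone acetyltransferase), BOP1 (ribosome assembly), CHURC1-FNTB (a readthrough transcript that shares introns with its parent genes), DYNC1LI2 (a dynein subunit), PITPNA (a lipid transfer protein) and CDC5L (a spliceosome component), each with 1 to 4 members per replicate. These shares rest on few clusters and the genes were picked for being high, so they are a description.

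Gene lists were read against the 7.52% of genes above. Among 17 genes of proteins that read purine tracts, 12 had an intron cluster in all 3 replicates and 1 of them, TRA2B, had purine-rich ones in all 3, with 2 of 16, 1 of 6 and 2 of 22. HNRNPF had 2, 0 and 4, and 9 of the 17 had none in any replicate, SRSF1, SRSF3, SRSF11 and HNRNPH1 among them. Over the list, 6 of 116, 9 of 110 and 7 of 126 intron clusters were purine-rich, or 5.17%, 8.18% and 5.56%, beside 3.16%, 4.02% and 3.36% over all genes. Among 10 pyrimidine-tract binders and MATR3 partners, none of the 10 had members in all 3 replicates. Their share of purine-rich clusters was 3.01%, 4.96% and 4.55%, near that of all genes. At least 1 member in any replicate was held by 8 of these 10 and 8 of the 17 purine-tract readers. In the list below it was 4 of 16. Over all genes it was 4416 of the 10392 with an intron cluster of the length range. The list counts are not on that base, as they include genes with no such cluster in any replicate. These were SRSF2 among the readers, and CGAS, STING1, IRF3, IKBKE, TREX1, RNASEH2A and RNASEH2C in the list below. MATR3 itself had 0 of 21, 2 of 23 and 2 of 29, and PTBP1 0, 1 and 2. Among 16 genes of DNA sensing and its neighbours, 6 had an intron cluster in all 3 replicates and 1 of them, the lamin B1 gene LMNB1, had purine-rich ones in all 3, with 1, 3 and 1. The share over this list was 6.10%, 3% and 3.57%, above that of all genes in replicates 1 and 3 and below it in replicate 2. RNASEH2B, a subunit of the nuclease that clears ribonucleotides from DNA, had 2, 0 and 1. The sensor gene CGAS and its adaptor STING1 had no intron cluster of the length range in any replicate. No test was made on these shares, which rest on few clusters.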

How the data were processed

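Each library is a PAR-CLIP of MATR3 from HEK293 cells. Per the file headers, the authors deposited 1 table of clusters per replicate with whole read, distinct read and conversion counts, a fraction of reads with T-to-C, a conversion specificity on a log10 scale, and an annotation and gene name. The genome build, hg38, comes from the submitters' processing notes; aligner, cluster caller and annotation release are not given in the sources used here. Cluster limits and separate calling per replicate shape what can be seen, and intervals or spreads cover these 3 libraries only.

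From these, class values were computed inside each replicate with Python 3.11.15, numpy 2.4.6, pandas 2.3.3 and bedtools 2.31.1, with introns from GENCODE 44 (99.9% of intron clusters of the length range lay in one). Differences were tested over the 3 replicates with exact two-sided sign-flip permutation tests. For values within classes of T number and length, clusters of both classes were compared inside the same T and length bins. The T bins were 2 to 3, 4 to 5, 6 to 8 and 9 or more, and length was also binned, so both were matched only roughly. At a purine share of 0.45 to 0.55, mixed clusters with few T for their length hold more C. The part of this in the values was not tested. The 5-mer ratio added 0.5 to counts, and its script was checked on simulated data. Named were the 12 genes with the largest geometric mean number of members, the 12 with the largest lowest share, 3 gene lists and the 10 leading and 5 lowest 5-mers. The members, lists and tests were chosen with earlier results of these data known. Alternatives were other purine thresholds, a wider mixed class, short clusters, stricter cluster filters, other overlaps and moving distances, and leaving out each replicate. RNA-seq named in the design text is not analysed here. 1 site with clusters in all 3 replicates is not reported here.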

Additional observations from a re-analysis of the deposited data

How the results depend on the processing

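Of 134 alternative values for the 12 differences between purine-rich and mixed clusters, 124 kept their direction. As each of the 12 had the same sign in 3 of 3 replicates, the values with 1 replicate left out could not turn. The 10 that turned were at 20 to 40 nt the log2 reads (0.0139), log2 distinct reads (0.0268), T-to-C read share (-0.40 points) and log10 specificity (0.0025); within classes of T number and length the log2 reads (0.0130), log2 distinct reads (0.0012), specificity (0.0013), share near the 5′ splice site (-1.12 points) and flanking T share (0.25 points); and with at least 3 distinct reads the T-to-C read share (-0.79 points). The cause was not tested. The recurrence difference stayed negative under each alternative, from -7.52 with at least 3 conversion locations to -2.86 at 20 to 40 nt, and was -3.27 with replicates 1 and 3 as the only partners, a choice made after seeing the data. Genes with members in all replicates numbered 104 at a purine share of at least 0.70, 228 with at least 3 distinct reads, and 869 to 1025 when 1 replicate was left out, where only 2 replicates had to hold one. No paired analysis was possible because all 3 libraries belong to 1 group, so no libraries could be paired; the classes were compared inside each library. With 4 reads as the minimum and 2 or fewer distinct reads in 46.0% ± 5.35 of members (SD, n = 3), weaker sites were not seen.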
